A study of Mus musculus with 4 samples.

Results

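The mitochondrial protein import genes are 30 of the 22380 protein-coding genes of the mouse annotation GENCODE M1. They were picked by symbol: every symbol that starts with Tomm or Timm, plus Grpel1, Grpel2, Hspa9, Samm50, Dnajc19, Pmpca, Pmpcb and Chchd4. Import factors that carry another name in this annotation are not among them. The genes were chosen with earlier results of these data known. The binding data are 2 lists of ChIP-Seq peaks from E14 mouse embryonic stem cells (ESCs), with 1 library for each ChIP. The Bio-Myc ChIP was performed with streptavidin beads in a single stable clone that expresses Myc with an N-terminal biotin tag from a ubiquitous EF1α promoter. Per the study's methods, the tagged Myc clones were made by transfecting BirA-ES cells. The Max ChIP was performed with an anti-Max antibody in parental wild type cells. The controls were a mock ChIP with the same beads, whose cells the labels call parental wild type and the study's methods call BirA-ES cells lacking tagged Myc, and an IgG ChIP in parental cells. The cells and the way of purification therefore differ between Bio-Myc and Max, and these differences cannot be told apart from a difference between the proteins. The lists hold 3962 Bio-Myc and 11570 Max peaks. Each peak has a score, which is 10 times the negative log10 of the p-value from the peak caller MACS, and 80 is the lowest score that the limit of 1e-08 allows. The read numbers are unknown, there are no replicates, and a gene without a peak is a gene with no peak past this limit, not a gene shown to be free of the protein. Peak lists hold no expression values, so the labelled cell type could not be checked against its markers.

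Nearly all mitochondrial proteins are encoded in the nucleus, made in the cytosol and carried into the organelle. The TOM complex forms the entry gate of the outer membrane, with receptors that recognise the precursors and a channel built by Tomm40. Precursors with a cleavable presequence then pass the TIM23 translocase and are drawn into the matrix by a motor around the mitochondrial Hsp70, after which a processing peptidase removes the presequence. Carrier proteins of the inner membrane take another way, escorted by the small TIM chaperones to the TIM22 translocase. Myc binds DNA as a dimer with Max, best at the E-Box CACGTG, and is known for driving genes of cell growth, among them many for mitochondrial proteins.

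The E-Boxes under the Bio-Myc promoter peaks of these genes are shown first. Of the 16 members with such a peak, 9 held one (56.2%), near the 49.6% of the other genes with such a peak. For 8 of the 9 genes, the E-Box nearest to the centre of the Bio-Myc peak is given with 12 bases to either side, 5′ to 3′ on the strand of the gene, with the E-Box in capitals. The sequence is that of mm9 (NCBIM37).
Timm9, minus strand, chr12:72237703-72237732, 55 bp upstream of a TSS: cctacattttccCACGTGgtaacgaatctg
Tomm20, minus strand, chr8:129469930-129469959, 221 bp upstream of the TSS: gcacgccacaaaCACGTGctgcccctgacc
Tomm70a, plus strand, chr16:57122089-57122118, coding exon, 209 bp downstream of a TSS: ctgccgcgatggCACGTGgcgctggccatc
Timm50, minus strand, chr7:29096705-29096734, intron, 239 bp downstream of a TSS: ccaggtctcaacCACGTGggtgccgggaga
Tomm5, minus strand, chr4:45120528-45120557, intron, 368 bp downstream of a TSS: ttaagaagctccCACGTGttatcctcggag
Timm10, plus strand, chr2:84667194-84667223, UTR, 54 bp downstream of a TSS: ccggaagtgaccCACGTGcttcttatttcg
Chchd4, minus strand, chr6:91423006-91423035, intron, 397 bp downstream of the TSS: cctagcactcccCACGTGgttctatcccgc
Tomm7, minus strand, chr5:23349963-23349992, UTR, 2 bp downstream of the TSS: ccgtaaaggcccCACGTGgcgcatgcgcag

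Genes were called bound where at least part of a peak lay 1 kb or less from an annotated TSS. A Bio-Myc peak was found at 16 of the 30 import genes (53.3%) and at 14.6% of the other 22350 protein-coding genes. A Max peak was found at 18 of the 30 (60%) and at 34.8% of the other genes. Both peaks were found at 13 import genes (43.3%), against 12.6% of the other genes. A Bio-Myc peak alone was present at 3 members (10%, against 1.97%), and all of them encode subunits of the TOM complex: Tomm40, Tomm6 and Tomm7. A Max peak alone was present at 5 members (16.7%, against 22.2%), and no peak at 9 (30%, against 63.3%). Among the genes with a Bio-Myc peak, Max was also called at 81.2% of the import genes and at 86.5% of the other genes, which are close. Among the genes with a Max peak, Bio-Myc was also called at 72.2% of the import genes and at 36.3% of the other genes. These shares are descriptions of 1 library each, and no test was run on the list.

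Promoters rich in CpG dinucleotides carried more peaks of both proteins, and most import genes have such promoters. The ratio of observed to expected CpG within 500 bp of the outermost TSS had a median of 0.763 in the import genes and 0.548 in the other genes. Of the 30 members, 26 had a ratio of at least 0.6. Among the 10185 other genes above that value, 27.0% carried Bio-Myc, 59.8% carried Max and 23.7% carried both. In the 26 import genes the shares were 57.7%, 65.4% and 46.2%. Set beside CpG-rich promoters, the share of import genes with Max was therefore close to the background, while the share with Bio-Myc was above it. The members without a peak had a median ratio of 0.725, and the highest ratio of all members (0.936) belonged to Timm23, which had no peak. The members below 0.6 were Tomm40l (0.402), Timm8a2 (0.473) and Tomm20l (0.557), all without a peak, and Timm44 (0.596), which had both peaks.

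**Figure D1:**
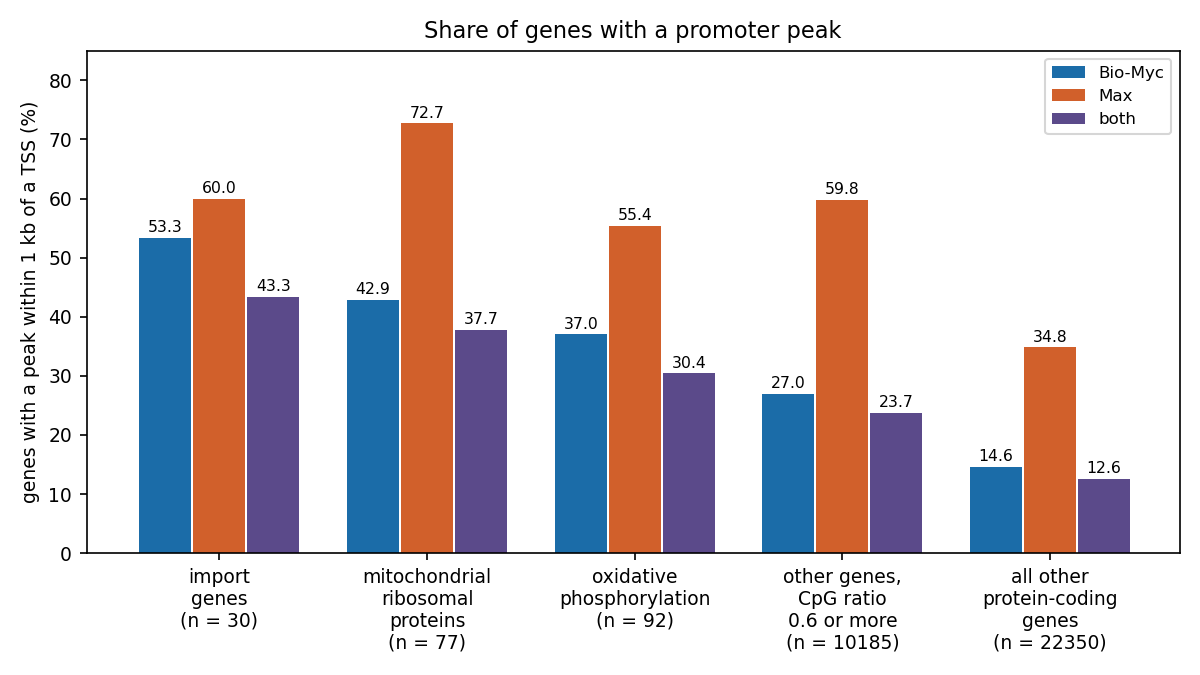
The bars give the percentage of genes that carry Bio-Myc, Max or both near an annotated TSS, for the import genes, 2 other mitochondrial gene sets, the other genes with a promoter CpG ratio of at least 0.6 and all other protein-coding genes. The Bio-Myc bar of the import genes (53.3%) is the highest of the 5. Their Max bar (60%) covers all 30 import genes and is level with that of the CpG-rich genes (59.8%). Among the 26 import genes with a ratio of at least 0.6, which have no bar, 65.4% carried Max.

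The TOM complex had 9 genes in the list, of which 6 carried Bio-Myc and 3 carried Max. Tomm20, the receptor for presequences (chromosome 8, 129458043 to 129469723), had the highest scores of the group, 370 for Bio-Myc (129468615 to 129470420) and 1399.65 for Max (129468478 to 129470373). Tomm70a, the receptor for carrier precursors (chromosome 16, 57121827 to 57156818), had scores of 300 (300.13) and 538. Tomm5, a small subunit of the channel complex (chromosome 4, 45118080 to 45120986), had 175 and 511. Thus a receptor of each precursor class and 1 small subunit had both peaks. Tomm40, which forms the channel itself (chromosome 7, 20286662 to 20300787), scored 194 for Bio-Myc (20300281 to 20301093). The closest Max peak (20281564 to 20282601) lay past the far end of the gene, 5888 bp downstream of an annotated TSS inside it. Tomm7 (chromosome 5, 23344762 to 23349979) and Tomm6 (chromosome 17, 47823595 to 47825335) are further small subunits and had Bio-Myc scores of 125 and 100 (100.25). The nearest Max peaks of Tomm7 and Tomm6 lay 6277 bp and 14573 bp upstream of the TSS. No peak was found at Tomm22, the central receptor (chromosome 15, 79501291 to 79503292), where the nearest Bio-Myc peak was 19.7 kb and the nearest Max peak 18.9 kb downstream. The paralogs Tomm20l and Tomm40l had no peak either. Tomm34, a cytosolic co-chaperone named with the family (chromosome 2, 163879276 to 163896905), had both peaks over its TSS, with scores of 217 and 235, and a second Bio-Myc peak with a score of 118 whose near edge lay 874 bp upstream. Stk4 has a TSS 780 bp from that of Tomm34, so the second peak cannot be assigned to 1 of these genes.

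**Figure D2:**
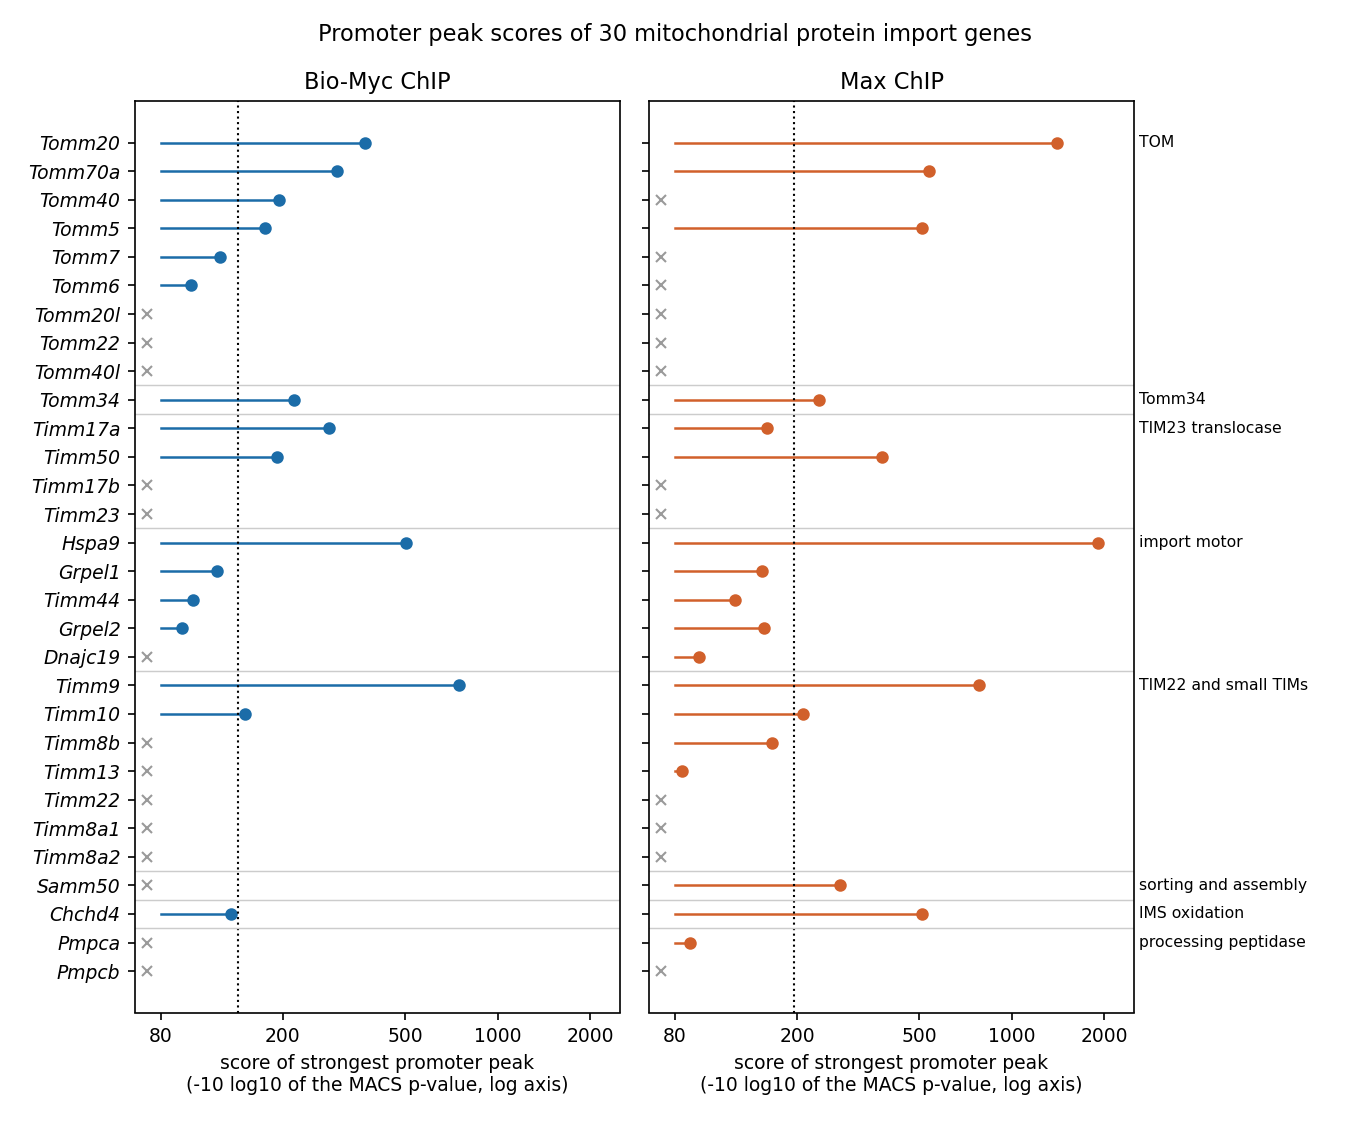
Each row is an import gene, grouped by its place in the machinery, and the points give the score of the strongest peak within 1 kb of a TSS in the Bio-Myc list (left) and the Max list (right), on a log axis from the lowest deposited score of 80. Crosses mark genes without a peak, and the dotted lines mark the median of the other bound genes (143 and 196). Tomm20, Hspa9 and Timm9 reach far to the right in both lists, and Tomm40, Tomm7 and Tomm6 have a point on the left only.

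At the TIM23 translocase, 2 of 4 genes had both peaks and 2 had none. Timm50, the receptor that takes over presequences from the TOM complex (chromosome 7, 29090535 to 29097091), scored 192 for Bio-Myc (29096622 to 29097471) and 378 for Max (29096546 to 29097643). Timm17a, a core membrane subunit (chromosome 1, 137198109 to 137210355), had a Bio-Myc score of 283, above those of 84% of the other bound genes, and a Max score of 160, above 38.6%. It was the single member with both peaks whose Max score was lower than its Bio-Myc score. Neither Timm23, the namesake core subunit (chromosome 14, 32993348 to 33015084), nor Timm17b (chromosome X, 7476483 to 7485477) had a peak. The nearest Max peaks were 25.8 kb and 15.8 kb downstream of a TSS, and the nearest Bio-Myc peaks 31.7 kb and 109 kb downstream.

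The import motor had a Max peak at all 5 of its genes in the list and a Bio-Myc peak at 4. Hspa9, the mitochondrial Hsp70 (chromosome 18, 35097068 to 35114011), scored 504 for Bio-Myc (35113352 to 35115109) and 1905 for Max (35113407 to 35114895). These scores were above those of 95.2% and 99.8% of the other bound genes, and the Max score was the highest of all members. Its exchange factor Grpel1 (chromosome 5, 36807647 to 36816729) had scores of 122 and 153, and the second exchange factor Grpel2 (chromosome 18, 61872094 to 61885985) had 93.7 (93.65) and 156. Timm44, which tethers the Hsp70 to the translocase (chromosome 8, 4259731 to 4275913), had 102 and 126. The partners of Hspa9 thus lay in the lower part of both lists, with Bio-Myc scores above those of 16.5% to 38.6% of the other bound genes. Dnajc19, the J-protein of the motor (chromosome 3, 33954942 to 33980243), scored 95.7 for Max, with no Bio-Myc peak closer than 674 kb.

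Of the 7 genes for the TIM22 translocase and the small TIMs, 2 had both peaks, 2 a Max peak alone and 3 none. Timm9 and Timm10 encode the partners of the major small TIM chaperone, and both were bound. Timm9 (chromosome 12, 72224160 to 72237662) had the highest Bio-Myc score of the list, 750, for a peak from 72237076 to 72238727, and a Max score of 780 (780.48) for a peak from 72237009 to 72238131. Timm10 (chromosome 2, 84667154 to 84670370) had scores of 151 and 209, near the middle of the other bound genes. Of the second chaperone, built by Timm8 and Timm13 proteins, Timm8b (chromosome 9, 50412006 to 50413425) had a Max score of 165 and Timm13 (chromosome 10, 80362195 to 80363714) one of 84.8 (84.76), the lowest Max score of the members. Their nearest Bio-Myc peaks were 12.8 kb and 92.9 kb downstream of the TSS. Timm22, the channel of the carrier translocase (chromosome 11, 76220454 to 76229794), had no peak, with the nearest Max peak 7.94 kb upstream. Timm8a1 (chromosome X, 131071795 to 131076404) and Timm8a2 (chromosome 14, 122433896 to 122437642) had none nearer than 43.5 kb and 71964 bp.

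The remaining 4 genes stand for other steps of import. Chchd4, the oxidoreductase that traps small cysteine-rich proteins between the membranes (chromosome 6, 91414270 to 91423417), scored 136 for Bio-Myc (91422320 to 91423631) and 509 for Max (91422211 to 91424320). Samm50, the core of the complex that inserts barrel proteins into the outer membrane (chromosome 15, 84022663 to 84044733), scored 277 for Max, with no Bio-Myc peak closer than 597 kb. Pmpca and Pmpcb encode the subunits of the processing peptidase. Pmpca (chromosome 2, 26244859 to 26252642) had a Max score of 89.5 (89.45), and Pmpcb (chromosome 5, 21242959 to 21262970) had no peak nearer than 27.7 kb. No Bio-Myc peak was thus called at the processing peptidase or at Samm50.

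Within the list, the Bio-Myc scores of the 16 bound members ran from 93.7 (93.65) at Grpel2 to 750 at Timm9, with a median of 184, and the median of the other bound genes was 143. The Max scores of the 18 bound members ran from 84.8 at Timm13 to 1905 at Hspa9, with a median of 222 against 196. Among the members with both peaks the Max scores had a median of 378, while the 5 with Max alone had a median of 95.7 and a highest score of 277. These medians were not set beside those of other genes with both peaks or with Max alone. The Max score was the larger one at 12 of the 13 members with both peaks (92.3%) and at 80.1% of the 2819 other genes with both. Scores depend on read numbers and controls, so the size of this ratio, with a median of 1.67 in the members and 1.65 in the other genes, says nothing about relative occupancy.

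**Figure D3:**
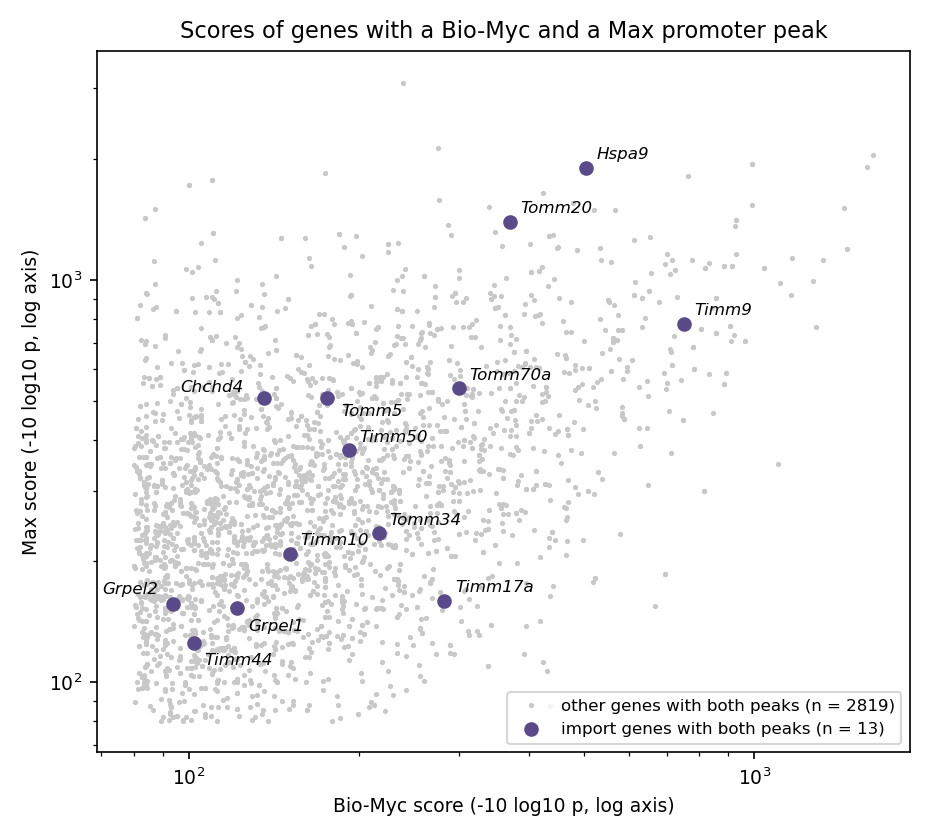
Each point is a gene with both peaks, with its Bio-Myc score on the horizontal and its Max score on the vertical axis, both on log axes. The 13 import genes (purple) are spread over the range of the 2819 other genes (grey), from Timm44 and Grpel2 at the lower left to Hspa9 (504 and 1905) and Timm9 (750 and 780) at the upper right.

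The import genes were also compared with the others at stricter limits. At a limit of 1e-15, 10 of the 30 kept a Bio-Myc peak (33.3%), against 6.81% of the other genes, and 14 kept a Max peak (46.7%), against 22.6%. Among promoters with a CpG ratio of at least 0.6, 38.5% of the import genes and 13.0% of the other genes kept Bio-Myc. For Max these shares were 53.8% and 40.6%, which lie closer together than the shares over all genes. At 1e-30, Timm9, Hspa9, Tomm20 and Tomm70a remained in the Bio-Myc list (13.3%, against 2.12%), and 7 members remained in the Max list (23.3%, against 9.96%).

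**Figure D4:**
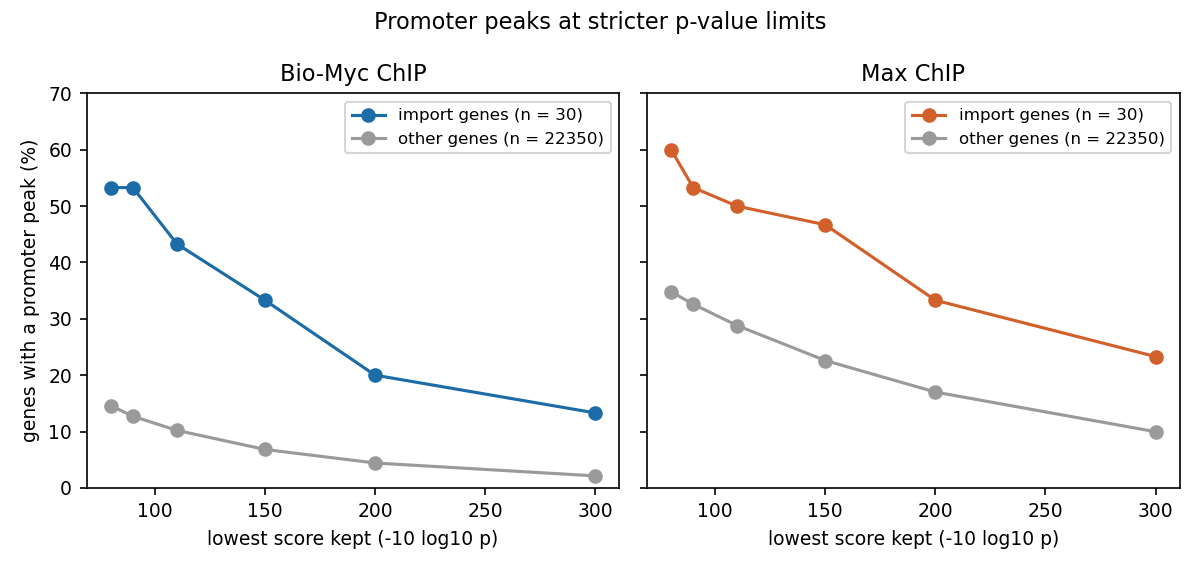
The lines give the percentage of import genes (coloured) and of other protein-coding genes (grey) with a Bio-Myc peak (left) or a Max peak (right) within 1 kb of a TSS, as the lowest score kept is raised from 80 to 300 (p-values of 1e-08 to 1e-30). The import genes stay above the other genes at each of the 6 limits in both lists, falling from 53.3% to 13.3% on the left and from 60% to 23.3% on the right. The grey lines cover all other genes, and CpG-rich genes have no line of their own.

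The peaks sat on the transcription start. At least 1 Bio-Myc peak covered an annotated TSS at all 16 bound members and at 88.8% of the other bound genes, and a Max peak did so at all 18 bound members and at 86.1% of the others. The narrower windows of the TSS itself and 500 bp therefore lost no member. The wider windows of 5 kb, or 3 kb upstream to 2 kb downstream, gained none, since the nearest peak to a member not counted as bound in that list was the Max peak 5888 bp from a TSS of Tomm40. At all 13 members with both peaks the strongest peaks overlapped each other, by 683 bp at Timm17a to 1759 bp at Tomm20. A Bio-Myc and a Max peak also overlapped at 97.9% of the 2819 other genes with both, so this is the general case. The centres of the strongest peaks were a median of 85 bp apart in the members, against 110 bp in the other genes. The strongest peaks were a median of 1076 bp wide for Bio-Myc and 931.5 bp for Max, close to the 1074 bp and 885 bp of the other bound genes.

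**Figure D5:**
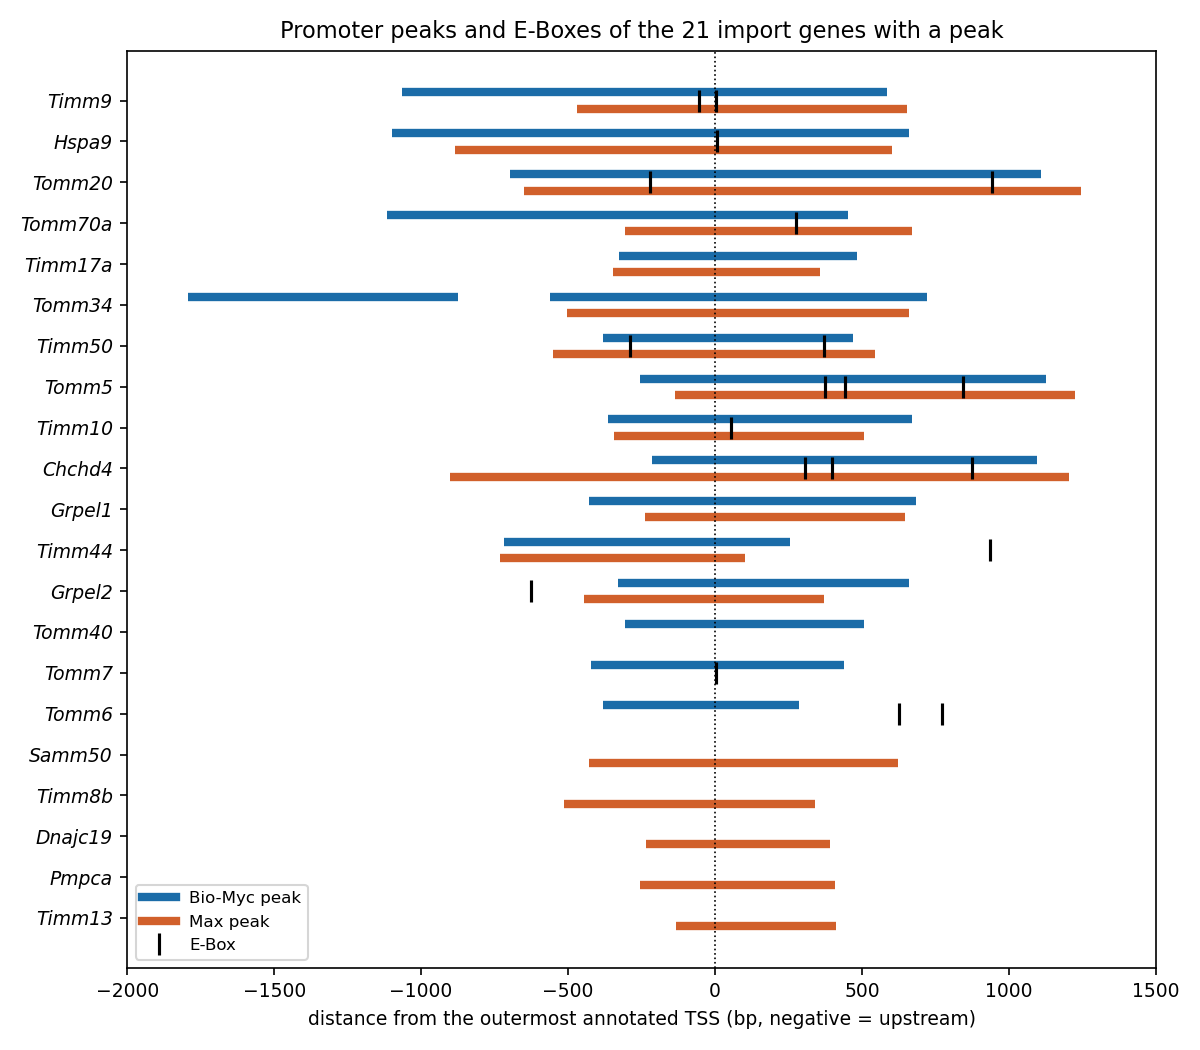
Bars show the extent of the Bio-Myc (blue) and Max (orange) peaks of the 21 import genes with a promoter peak, by distance in bp from the outermost annotated TSS with upstream to the left, and ticks mark E-Boxes that lie in a peak or within 1 kb of a TSS. The bars cover the TSS at every gene, the blue and orange bars overlap at the 13 genes at the top, and the ticks of Timm44, Grpel2 and Tomm6 fall outside the bars.

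The E-Box was searched on the mm9 sequence as CACGTG, which reads the same on both strands. Within 1 kb of the outermost TSS, a region of equal length in every gene, it occurred in 15 of the 30 import genes (50%) and in 27.8% of the other genes. The import genes with an E-Box there had a Bio-Myc peak in 12 of 15 cases, and those without one in 4 of 15. The same shares of the other genes were 26.1% and 10.2%. Among CpG-rich promoters, they were 84.6% of 13 and 30.8% of 13 import genes, and 40.2% and 20.2% of the other genes. For Max, 10 of the 15 members with an E-Box (66.7%) and 8 of the 15 without one (53.3%) had a peak, against 52.2% and 28.0% of the other genes. Among CpG-rich promoters with an E-Box, the Max share was 69.2% of the import genes and 74.8% of the other genes, so it was not above the background there. Without an E-Box it was 61.5% and 52.1%.

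Under the peaks themselves, 9 of the 16 Bio-Myc-bound members held an E-Box (56.2%), as did 49.6% of the other bound genes. The same count for Max was 8 of 18 (44.4%), against 38.6%. The presence of an E-Box under a peak thus lay near its background. It was found in both peaks at Timm9, Hspa9, Tomm20, Tomm70a, Timm50, Tomm5, Timm10 and Chchd4, and in the Bio-Myc peak at Tomm7. Tomm5 and Chchd4 held 3 each, Timm9, Tomm20 and Timm50 held 2 each. The E-Box printed for Tomm7 lay 7 bp from the Bio-Myc peak centre, that of Tomm5 8 bp and that of Chchd4 45 bp, while that of Tomm70a was 607 bp from the Bio-Myc centre but 95 bp from the Max centre. The E-Boxes of Hspa9, Timm9 and Tomm7 lay on the first transcribed bases, with centres 7, 2 and 2 bp downstream of an annotated TSS. In the central 200 bp of the Bio-Myc peaks, 3 of the 16 members held one (18.8%), against 17.8% of the other bound genes.

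At 7 of the 16 Bio-Myc-bound members no CACGTG lay under the peak: Timm17a, Tomm34, Tomm40, Grpel1, Timm44, Tomm6 and Grpel2. Related sequences were searched on both strands, which were CACGCG, then CATGTG, then CACGAG and finally CATGCG. The last of these overlaps its own complement where CGCATGCG occurs, and both matches are then counted. At least 1 of these lay under the Bio-Myc peak of 6 of the 7 genes. The same share among the other bound genes without an E-Box under the peak was not counted. The count of 6 of 7 therefore has no background to be set beside. Taken singly, the related sequences occurred in the Bio-Myc promoter peaks of 29.4% to 57.1% of all other bound genes. Tomm6 held a CACGCG 34 bp from the peak centre, Tomm40 held 2 CACGAG, and Timm17a, with a Bio-Myc score of 283, held none of the 5 sequences in either peak. These short sequences are common: CACGCG alone occurred in the Bio-Myc promoter peaks of 57.1% of the other bound genes and of 43.8% of the bound members. The 5 members with Max alone held no CACGTG within 1 kb of a TSS. Over all other protein-coding genes, 27.8% held one within 1 kb of the outermost TSS. The share among other genes with Max alone was not counted.

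Some members without a peak did hold an E-Box near the TSS. Timm8a1 had one 38 bp upstream and one 222 bp downstream of its TSS, Tomm20l had one 23 bp upstream, and Tomm22 had one 790 bp upstream. Pmpcb had one 77 bp upstream and one 536 bp downstream of annotated TSSs inside the gene, but none within 1 kb of its outermost TSS. Timm8a1 and Timm17b are the members on chromosome X, which held 56 Bio-Myc and 74 Max peaks in all.

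At 8 members the TSS of another protein-coding gene lies within 1 kb, so that a peak there cannot be assigned to 1 gene. The neighbour is Sdhd at Timm8b (52 bp), Sdccag3 at Pmpca (23 bp), 2700049A03Rik at Timm9 (173 bp), Tmem43 at Chchd4 (280 bp), Stk4 at Tomm34 (780 bp), Frs3 at Tomm6 (644 bp), Parg at Timm23 (51 bp) and Pqbp1 at Timm17b (88 bp). The neighbour is transcribed in the opposite direction at each of the 8. Among the 22 members with a promoter of their own, 12 carried Bio-Myc and 13 carried Max (54.5% and 59.1%), while of the other genes without such a neighbour 11.9% and 30.7% did. Chromosome 8, which held 1357 of the Max peaks but 214 of the Bio-Myc peaks, carries Tomm20 and Timm44. Without it, 14 of 28 members carried Bio-Myc, against 14.5% of the other genes, and 16 of 28 carried Max, against 33.5%.

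Related genes of the machinery often differed in their peaks. Timm17a had both peaks and Timm17b none, Tomm20 both and Tomm20l none, and Tomm40 a Bio-Myc peak while Tomm40l had none. Of the Timm8 genes, Timm8b had a Max peak and Timm8a1 and Timm8a2 no peak. Grpel1 and Grpel2 were alike, with both peaks and scores of 122 and 153 against 93.7 and 156. The paralogs without a peak differed in their promoters, with CpG ratios of 0.557 at Tomm20l, 0.402 at Tomm40l and 0.473 at Timm8a2 but 0.728 at Timm17b and 0.792 at Timm8a1. The part of CpG content in these differences was not tested.

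A further 30 genes that act beside the import machinery were looked up, among them assembly factors, peptidases, chaperonins and proteins of the cristae junctions. Bio-Myc was found at 13 (43.3%), Max at 22 (73.3%) and both at 11. The shares over all protein-coding genes outside the import list were 14.6%, 34.8% and 12.6%. Among those with a CpG ratio of at least 0.6 they were 27.0%, 59.8% and 23.7%. The highest Bio-Myc score was 1040 (1039.77), of a peak in the promoter that Hspd1 and Hspe1 share, which encode the chaperonin that folds imported proteins and its lid. Next came Vdac1, the anion channel of the outer membrane, with 553, the matrix protease subunit Clpp with 371 and the assembly factor Mtx2 with 257. No peak was found at Pam16, Immp1l, Apoo, Apool, Yme1l1 and Clpx. Pam16 is the partner of the J-protein in the motor, whose other genes all had a Max peak.

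In the 77 genes of the mitochondrial ribosome, 42.9% carried Bio-Myc and 72.7% carried Max, and in the 92 genes of oxidative phosphorylation 37.0% and 55.4%. All protein-coding genes outside the import list had 14.6% and 34.8%, and those with a CpG ratio of at least 0.6 had 27.0% and 59.8%. At the limit of 1e-15, 19.5% and 12% of the 2 mitochondrial sets kept a Bio-Myc peak. The import genes kept one at 33.3% and all protein-coding genes outside the import list at 6.81%. Those outside the list with a CpG ratio of at least 0.6 kept one at 13.0%. The sets differ in size and no test of these differences was run.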

How the data were processed

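ChIP-Seq peaks of 2 of the 4 samples were analysed, while the mock and IgG samples served only as controls in peak calling. Per the methods and the submitters' processing notes, the authors aligned uniquely mapping reads with Bowtie 0.12.7 to mm9, removed duplicates and ran MACS 1.4.1 with the mock or IgG library as control, keeping peaks at 1e-08 or lower. The deposited score of each peak is 10 times the negative log10 of its p-value, with 3100.0 as the highest value in the Max list. Unique mapping leaves out repeated sequence, and the number of peaks depends on the unstated depth. Genes, TSSs and sequence were those of GENCODE M1 (Ensembl 65, NCBIM37), the assembly of mm9. All peaks lay inside its chromosomes. Coordinates are 1-based. Where a gene had several peaks, the highest score was used. Every member was named. Of the 30 further genes, the 5 highest by Bio-Myc score and those without a peak were named. The members and lists were chosen with earlier results of these data known, so no test was run. CpG ratios and E-Boxes were counted with Python 3.11.15 and numpy 2.4.6. The overlap, distance and motif steps were tested on simulated data, and 7 of 7 returned the known answers. The alternatives were other windows, TSSs, p-value limits and parts of peaks, peak lists of equal length, and analyses without chromosome 8 or without shared promoters.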

Additional observations from a re-analysis of the deposited data

How the results depend on the processing

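The counts of 16, 18 and 13 import genes with a Bio-Myc peak, a Max peak or both were the same in 6 of the 11 alternatives, which were the other promoter windows and choices of TSS. At a p-value limit of 1e-15, 10 members had a Bio-Myc peak. With the Max list cut to its 3962 highest-scoring peaks, the number of the Bio-Myc list, 9 members had a Max peak (30%, against 15.5% of the other genes) and 8 had both (against 8.30%), and fewer peaks can only lower these counts. In the central 200 bp in place of the whole peak, an E-Box was found at 3 members in the Bio-Myc list and at 3 in the Max list, since a narrower region is searched. The counts and medians under the other alternatives stayed within 1.5 times the reported ones. The share of other genes moved with the window, from 13.0% (TSS covered) to 16.6% (5 kb) in the Bio-Myc list, and in the Max list from 29.9% to 38.6%. No replicates exist, so no value has an error between cultures, and the unknown depth limits what an absent peak means.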

Other observations

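The bases next to the E-Boxes were counted after the printed sites had been seen. Of the 16 E-Boxes under the Bio-Myc promoter peaks of the import genes, 14 (87.5%) were preceded by a C on at least 1 strand, as CCACGTG, and 5 (31.2%) had it on both strands. Of the 1984 E-Boxes under the Bio-Myc promoter peaks of other protein-coding genes, 59.4% and 12.5% did. Sites of 1 promoter share their sequence surroundings, the 16 sites come from 9 genes, and no test was run.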
